A study of Mus musculus with 9 samples.

Results

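The interferon effectors described here were 10 genes of 3 families and their companions, chosen by symbol: Ifit1, Ifit2 and Ifit3, Isg15 and its protease gene Usp18, Mx1 and Mx2, and Rsad2, Ifi44 and Isg20. All 10 were among the 24411 genes of the expression table, and all 10 passed the filter on low values (1 TPM or more in 3 or more of the 9 libraries), as did 11753 genes in all. RNA was sequenced from macrophage lines of C57BL/6 mice kept in culture with M-CSF, with 3 lines from yolk sac (YS lines), 3 from fetal liver (FL lines) and 3 from adult bone marrow (BM lines). The yolk sacs were taken at E9.5 and the fetal livers at E14.5. The labels and methods name no altered gene and no interferon or other stimulus for these libraries, so the values below are levels in culture with recombinant human M-CSF. Each line was a bulk culture of a separate dish or well, started from cells pooled from several mice and expanded from colonies that appeared after weeks of culture. Differences between lines therefore describe cultures, not animals, and the p-values set group differences against the spread between these cultures. The methods do not say whether the lines of a group came from the same pool of cells. Differences of origin thus cannot be told apart from differences between pools. In such bulk RNA, fewer cells that express a gene and less RNA per cell cannot be told apart.

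Type I interferons bind the receptor IFNAR, whose kinases JAK1 and TYK2 start a signal that assembles ISGF3. This complex holds STAT2 and IRF9 and binds interferon-stimulated response elements in the promoters of many genes. The genes studied here are among its best known targets. IFIT proteins bind foreign RNA and hold back its translation. MX proteins are dynamin-like GTPases, and their intact forms block viruses. The libraries hold RNA only, and whether these lines made active MX protein was not tested. Rsad2 encodes viperin, which makes a chain-terminating nucleotide, and Isg20 encodes an exonuclease. Isg15 encodes a ubiquitin-like modifier that is joined to other proteins, and Usp18 removes it and also dampens signaling at the receptor. Macrophages keep a low tonic level of this program even without infection.

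Across the 10 effectors, TPM was higher in YS lines than in BM lines for every gene by the group mean of log2(TPM + 1), with FL lines in between. A gene was called when limma's false discovery rate fell below 0.1 and the fold change exceeded 2. By this rule 6 of the 10 genes (Mx1, Ifi44, Rsad2, Mx2, Usp18 and Isg20) were called higher in YS than in BM lines, where 7.57% of all tested genes were. Between FL and BM lines 3 of the 10 were called higher (Mx1, Rsad2 and Mx2), beside 6.01% of all tested genes. Between YS and FL lines 0 of the 10 were called, beside 1.95% of all tested genes called higher in YS lines, and 1 (Mx1) had an unadjusted p under 0.05, as did 25.7% of all tested genes. Within every group the lines differed widely, and they did so together: YS line 3 was the highest of all 9 lines for 10 of 10 genes, and BM line 3 was the lowest for 9 of 10.

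The core of the response element can be read in the promoters of several effectors, as RefSeq lists them on GRCm38.p6, from 250 bases before the transcription start to 50 after it. The table matched 7 of the 10 genes, with 10 promoters in all, and did not match Mx1, Mx2 or Usp18. The core letters searched on both strands were GAAA, any 2 bases and GAAA again. They were present in 4 of these 7 genes (Isg15, Rsad2, Ifit3 and Ifit1), against 1079 of 27025 genes with a promoter (3.99%) and 3.44% of all promoters. These stretches are shown, since these letters are what the 4 effectors share, 5′ to 3′ along the strand of the gene and wholly upstream of the start, with the matches in capitals. A run of TTTC with 2 bases and TTTC is the same core read on the opposite strand.

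Isg15: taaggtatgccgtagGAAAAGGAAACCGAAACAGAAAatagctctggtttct
Ifit1: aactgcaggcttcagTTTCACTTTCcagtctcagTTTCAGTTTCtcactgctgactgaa
Ifit3: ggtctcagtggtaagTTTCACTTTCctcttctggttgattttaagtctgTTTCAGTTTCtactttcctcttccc
Rsad2: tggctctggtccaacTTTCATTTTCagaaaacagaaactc

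The Isg15 stretch lies at chr4:156200860-156200911 on the minus strand and held 3 overlapping matches, the first beginning 78 bases before the start. The Ifit1 stretch (chr19:34640770-34640828, plus strand) held 2 matches that began 104 and 85 bases before the start. In Ifit3 (chr19:34583358-34583431, plus strand) 2 matches began 156 and 122 bases before the start, and the Rsad2 stretch (chr12:26456548-26456587, minus strand) held 1 match, at 120 bases. The promoters of Ifit2, Ifi44 and Isg20 held no match to these letters in this window. The corresponding stretch of Ifit3b, a near copy of Ifit3 that also lies on chromosome 19, was identical to that of Ifit3 at all 74 bases. A match describes letters only, and no binding was measured in these libraries.

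Among the other interferon-induced genes that were tested, 30 of the 53 with a listed promoter held the core (56.6%), close to the share of the effectors (57.1%). None of 14 tested NF-kB response genes with a promoter did. With the core in 3.99% of all genes with a promoter, 14 genes are too few to show a lack of it. Ifit2, Ifit3 and Ifit1 lie in 1 cluster on chromosome 19 in the RefSeq gene order, with Ifit2 next to Ifit3. Rsad2 on chromosome 12 is the neighbor of Cmpk2, which encodes a mitochondrial nucleotide kinase, and Ifi44 on chromosome 3 is next to Ifi44l, which was listed at 0 in all 9 lines. Reads of 75 nt cannot always separate such copies. In the GENCODE M21 transcripts, 41.1% of the distinct 75-base stretches of Ifit3 also occur in Ifit3b, 5.19% of those of Ifit1 occur in Ifit1bl2, and Mx1 and Mx2 share 1.71% and 2.01% of theirs. Ifit2, Isg15, Rsad2, Usp18, Ifi44 and Isg20 shared none with another gene. The authors' TPM divides shared reads by estimation, so the split between Ifit3 and Ifit3b is uncertain.

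The libraries were of like breadth, with 13345 to 14322 genes above 0 TPM, and TPM keeps no read number, so the depth is unknown. A pair of lines stood apart. BM line 2 held 215 TPM of the hemoglobin gene Hba-a1, against 8.62 TPM or less in every other line, and 229 TPM over 5 erythroid markers, against 8.77 TPM or less elsewhere. For 44 genes with under 0.5 TPM in the other BM lines and no less than 20 TPM in YS line 2, the level in BM line 2 was 14.3% of that in YS line 2 by the median (quartiles 10.8% and 17.7%). YS line 1 had the lowest Csf1r, the M-CSF receptor gene, at 1086 TPM against 1811 TPM or more elsewhere. The counts of called effectors are given with and without these lines, as are the fold changes they moved most. Of 8 macrophage markers, 8 were in the tested set, with a summed level of 4066 to 9175 TPM in YS, 11543 to 28150 TPM in FL and 11438 to 13167 TPM in BM lines. Every YS line was below every other line in this sum. Lyz2 was the highest of these markers in each line, at 1163 to 3531 TPM in YS, 5806 to 21976 TPM in FL and 5986 to 7841 TPM in BM lines. Between YS and BM lines Lyz2 was called lower, at -1.60, and Fcgr1 higher, at 4.65 (limma adjusted p = 0.0538 and 0.00761). The other macrophage markers were not called there. The part of these markers in the effectors' differences was not tested. Markers of plasmacytoid dendritic cells, a major interferon source, summed to 3.11 TPM or less in every line, and the defining Siglech was at 0.06 TPM or less.

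Ifit1, whose product recognizes RNA caps that lack host methylation, was at 14.1, 73.3 and 144 TPM across YS lines 1, 2 and 3, 48.8, 16.3 and 37.6 TPM across the FL lines and 20.5, 59.3 and 4.31 TPM across the BM lines. The ranges of the groups overlapped, and YS line 1 lay below FL lines 1 to 3 and below BM lines 1 and 2. On the log2(TPM + 1) scale this was 5.77 ± 1.68 for YS, 5.01 ± 0.80 for FL and 4.25 ± 1.76 for BM lines (mean ± SD, n = 3 lines each). The log2 fold change between YS and BM lines was 1.52 (standard error, SE, 1.01, adjusted p = 0.285 in limma, 95% interval -0.78 to 3.82). Between FL and BM lines it was 0.76 (limma adjusted p = 0.647), and without BM line 3 this value fell to -0.16 and without BM line 2 it was 1.59. The YS against BM value of Ifit1 ranged from 0.60 without BM line 3 and 0.82 without YS line 3 to 2.35 without BM line 2 and 2.45 without YS line 1, and was 3.28 with YS line 1 and BM line 2 both left out.

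Ifit2, which encodes a partner of IFIT1 and IFIT3 that binds AU-rich RNA, was at 14.6, 93.6 and 203 TPM across YS lines 1, 2 and 3, 62.8, 15.8 and 49.5 TPM across the FL lines and 17.2, 49.4 and 7.05 TPM across the BM lines. YS lines 2 and 3 were above all BM lines, while YS line 1 was below BM lines 1 and 2. Its log2 fold change was 1.78 between the YS and the BM lines (SE 1.00, adjusted p = 0.211 in limma) and 0.96 between FL and BM lines (limma adjusted p = 0.551). Neither passed the threshold. The YS against BM value of Ifit2 was 0.98 without YS line 3, 1.15 without BM line 3 and 2.83 without YS line 1, and reached 3.52 with both YS line 1 and BM line 2 left out.

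Ifit3, the scaffold of the IFIT complex, was at 19.7, 198 and 455 TPM across YS lines 1, 2 and 3, 123, 47.4 and 119 TPM across the FL lines and 16.6, 58.9 and 4.64 TPM across the BM lines. It had the widest range in YS lines, where line 3 was 23.1 times line 1, and 2 of the FL lines exceeded every BM line. Its log2 fold change between YS and BM lines was 2.77 (standard error 1.17, 95% interval 0.10 to 5.43), with a limma adjusted p of 0.11 just outside the threshold. In FL against BM lines it was 2.31 (limma adjusted p = 0.207). With the TPM of Ifit3 and Ifit3b summed, an alternative added after seeing the data, these became 2.83 and 2.42, with limma adjusted p of 0.114 and 0.202. Ifit3b itself, at 2.26, 41.1 and 110.4 TPM across YS lines 1, 2 and 3, 31.9, 9.85 and 26.6 TPM across the FL lines and 3.23, 10.3 and 0.27 TPM across the BM lines, followed the same order of lines within all 3 groups.

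Isg15 had the highest TPM of the 10 genes in all YS lines and BM lines. It was at 129, 339 and 751 TPM across YS lines 1, 2 and 3, 336, 32.1 and 236 TPM across the FL lines and 62.6, 149 and 36.0 TPM across the BM lines. FL line 2 was the lowest of all 9 lines for this gene alone, and the groups overlapped. The log2 fold change between YS and BM lines was 2.19 (SE 0.96, adjusted p = 0.12 in limma), and that between FL and BM lines was 0.97 (limma adjusted p = 0.525).

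Usp18, which encodes the protease that removes ISG15, was at 125, 267 and 491 TPM across YS lines 1, 2 and 3, 250.2, 66.3 and 196 TPM across the FL lines and 47.4, 103 and 12.6 TPM across the BM lines. Each YS line was above every BM line, with YS line 1 at 125 TPM and BM line 2 at 103 TPM as the nearest pair. The log2 fold change between YS and BM lines was 2.64 (SE 0.81, adjusted p = 0.041 in limma). It was 1.87 between FL and BM lines (limma adjusted p = 0.142, 95% interval 0.03 to 3.71), where FL line 2 lay below BM line 2. Without YS line 3 or without BM line 3, the YS against BM call of Usp18 was lost.

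Mx1 had the largest log2 fold change of the 10 genes in both comparisons with BM lines. Its level was 39.2, 68.4 and 105 TPM across YS lines 1, 2 and 3 and 44.3, 6.55 and 23.3 TPM across the FL lines, against 0.22 and 3.22 TPM in BM lines 1 and 2, and it was listed at 0 in BM line 3. All YS and all FL lines were above all BM lines, and YS and FL lines overlapped only through FL line 1. On the log2(TPM + 1) scale the means were 6.06 ± 0.70, 4.34 ± 1.31 and 0.79 ± 1.13 (SD, n = 3 lines each). The log2 fold change was 5.27 between the YS and the BM lines (SE 0.74, adjusted p = 0.00291 in limma). Between FL and BM lines it was 3.55 (SE 0.74, adjusted p = 0.012 in limma). Both calls of Mx1 held in every alternative run, with adjusted p of at most 0.0183 and 0.0538. Their size depended on the pseudocount, since BM line 3 is listed at 0: the 2 log2 fold changes were 7.11 and 5.33 at a pseudocount of 0.1 and 3.82 and 2.28 at a pseudocount of 4.

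Mx2, the other MX gene, was at 14.5, 17.9 and 30.4 TPM across YS lines 1, 2 and 3, 17.8, 5.27 and 10.5 TPM across the FL lines and 1.84, 5.90 and 0.31 TPM across the BM lines. Every YS line was above every BM line, and FL lines overlapped with BM lines only because FL line 2 lay below BM line 2. For Mx2 the log2 fold change was 2.83 between the YS and the BM lines (SE 0.61, adjusted p = 0.0125 in limma) and 1.91 between the FL and the BM lines (SE 0.61, adjusted p = 0.0607 in limma). The second call was lost without FL line 1, FL line 3, BM line 1 or BM line 3.

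Rsad2 was at 47.3, 103 and 289 TPM across YS lines 1, 2 and 3, 149.7, 27.7 and 110.2 TPM across the FL lines and 12.0, 29.3 and 4.66 TPM across the BM lines. Each YS line was above every BM line, and FL lines 1 and 3 were too, while FL line 2 lay just below BM line 2. For Rsad2 the log2 fold change was 3.12 between the YS and the BM lines (SE 0.86, adjusted p = 0.0294 in limma) and 2.58 between the FL and the BM lines (SE 0.86, adjusted p = 0.0687 in limma). The YS against BM call was lost without BM line 3, and the FL against BM call without FL line 1, FL line 3, BM line 1 or BM line 3. Cmpk2 beside Rsad2 rose in YS lines as well, with a log2 fold change against BM lines of 3.42 (SE 0.91, adjusted p = 0.0251 in limma).

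Ifi44, whose molecular role is less well known, was at 60.6, 100.3 and 115 TPM across YS lines 1, 2 and 3, 30.2, 0.64 and 34.4 TPM across the FL lines and 0.77, 13.2 and 0.10 TPM across the BM lines. YS lines were the tightest here, with line 3 at 1.89 times line 1, and they lay above all other lines. FL line 2 was at 0.64 TPM while the other FL lines were at 30 TPM or more, the widest ratio within the FL group. The log2 fold change between YS and BM lines was 4.89 (SE 1.27, adjusted p = 0.0233 in limma). In FL against BM lines it was 2.01 (SE 1.27, adjusted p = 0.308 in limma).

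Isg20 was at 13.4, 32.9 and 116 TPM across YS lines 1, 2 and 3, 18.2, 3.78 and 12.4 TPM across the FL lines and 4.70, 14.5 and 1.87 TPM across the BM lines. YS line 3 stood out, and BM line 2 was above YS line 1, so the groups overlapped although the difference passed. Its log2 fold change was 2.60 between the YS and the BM lines (SE 0.88, adjusted p = 0.0562 in limma) and 0.76 between FL and BM lines (limma adjusted p = 0.591). The YS against BM call was lost without YS line 3, BM line 1 or BM line 3, 1 line at a time.

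**Figure D1:**
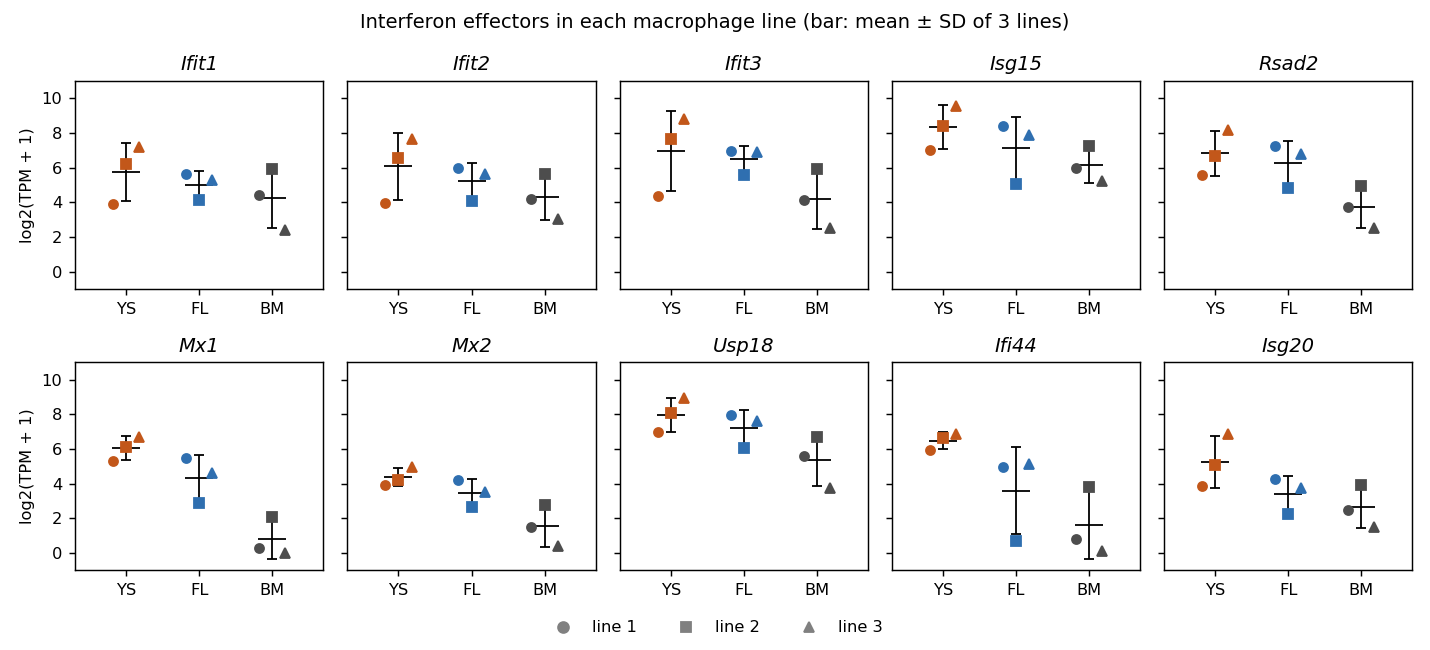
Level of each of the 10 genes, as log2(TPM + 1), in the 3 YS, 3 FL and 3 BM lines; each symbol is a line and the bar gives the mean ± SD. YS line 3 is the highest point in all 10 panels, and Mx1 is the gene whose YS and FL lines all lie above its BM lines.

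The 6 and 3 calls against BM lines were all in 1 direction, and no member was called lower in any comparison. All 3 YS lines were above all 3 BM lines for 5 of the 10 (Rsad2, Mx1, Mx2, Usp18 and Ifi44), against 30.3% of all tested genes, and all 3 FL lines for 1 of the 10 (Mx1), against 31% of all tested genes. The median log2 fold change of the 10 genes was 2.71 between YS and BM lines and 1.89 between FL and BM lines, where the median of all tested genes was 0.11 and 0.09. At an unadjusted limma p under 0.05, 8 and 4 of the 10 genes differed, beside 41.2% and 33.6% of all tested genes. The comparisons with BM lines share those 3 lines and are not independent of each other.

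Leaving out lines moved these counts. Without YS line 1 all 10 genes were called between YS and BM lines, beside 7.98% of all tested genes called higher. The count was 7 without BM line 2 (Ifit3 added) and 7 without FL line 2 (Isg15 added), beside 7.69% in each. It was 4 without YS line 3, beside 7.73%, and 3 without BM line 3 (Mx1, Mx2 and Ifi44), beside 5.55%. Between FL and BM lines the count was 5 without FL line 2 (Usp18 and Ifi44 added), beside 5.91% of all tested genes called higher. It was 4 without BM line 2 (Usp18 added) or YS line 1 (Ifit3 added), beside 6.05% and 6.5%. It was 1 (Mx1) without FL line 1, FL line 3, BM line 1 or BM line 3, beside 4.38% to 5.50%. With both YS line 1 and BM line 2 left out, the counts were 10 and 5, beside 8.28% and 7.02% of all tested genes. Quantile normalization left the counts at 6 and 3, beside 6.16% and 5.04% of all tested genes called higher. It turned the split of all called genes from 890 higher and 614 lower to 724 higher and 763 lower between YS and BM lines, and moved the median of all genes from 0.11 to -0.01.

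Between YS and FL lines the limma fold changes of the 10 genes were all positive, with a median of 0.87 beside 0.02 for all tested genes, and 0 of 10 were called, while 1.95% of tested genes were called higher in YS lines. At an unadjusted p under 0.05 the count was 1 of 10, Mx1, beside 25.7% of all tested genes, with a log2 fold change of 1.72 (SE 0.74, adjusted p = 0.189 in limma). The largest value was that of Ifi44, 2.88 (95% interval -0.01 to 5.77, limma adjusted p = 0.196), the 1 gene of the 10 whose YS lines all lay above the FL lines, an order that 12.6% of tested genes had. Isg20 differed by 1.85 (95% interval -0.15 to 3.84) and Isg15 by 1.22 (-0.96 to 3.40). The intervals of Ifit1 (-1.53 to 3.06), Ifit2 (-1.45 to 3.11) and Ifit3 (-2.20 to 3.13) reached well past 2-fold in both directions, so that these lines leave their YS and FL levels unresolved. For Rsad2 the interval was -1.43 to 2.49, for Mx2 -0.47 to 2.32 and for Usp18 -1.06 to 2.61. Without YS line 3 the sign of the Ifit3 value turned to -0.48 and that of Rsad2 to -0.15, and without FL line 2 that of Rsad2 turned to -0.19.

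**Figure D2:**
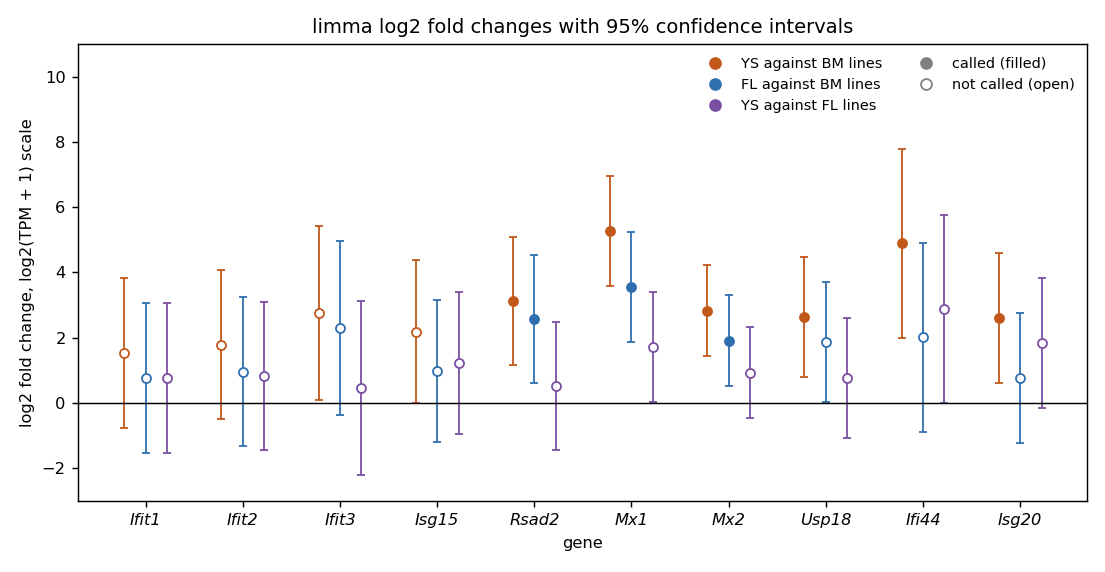
limma log2 fold changes of the 10 genes on the log2(TPM + 1) scale in the 3 comparisons, with 95% confidence intervals; filled points passed a false discovery rate of 0.1 and a 2-fold change. Mx1 has the highest YS against BM value, 5.27, and all purple points (YS against FL lines) are open.

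The lines of a group were spread more for these genes than for the median tested gene. The median SD of log2(TPM + 1) within groups was 1.34 over the 10 genes and 0.23 over all tested genes, of which 5.41% had an SD no lower than that of the least spread member. Over the 68 other interferon-induced genes tested the median was 0.62, and 16 of them reached that SD. By group the members' median SD was 1.28 in YS, 1.03 in FL and 1.28 in BM lines, against 0.28, 0.18 and 0.11 for all tested genes. The highest line of a group exceeded the lowest by 1.89 to 23.1 times in YS lines and by 2.59 to 53.7 times in FL lines. In BM lines the ratio reached 131.7 (Ifi44) among the 9 genes that were above 0 in all 3 lines.

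The order of lines was nearly fixed. YS line 1 was the lowest YS line for 10 of 10 genes, FL line 2 the lowest FL line for 10 of 10, and BM line 2 the highest and BM line 3 the lowest BM line for 10 of 10. FL line 1 was the highest FL line for 9, with Ifi44 as the exception. The summed level of the 10 genes was 478, 1293 and 2698 TPM across YS lines 1, 2 and 3, 1080, 222 and 829 TPM across the FL lines, and 184, 485 and 71.5 TPM across the BM lines. YS line 1 and BM line 2 thus had like sums, although their groups differed, and FL line 2 lay between BM lines 1 and 2. Pearson's r of log2(TPM + 1) across the 9 lines was 0.69 to 0.98 for the 45 pairs of members, with a median of 0.90. After each group's mean was removed the median was again 0.90 (0.65 to 0.99). The points are 9 libraries that share their group differences, and r is given as a description.

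**Figure D3:**
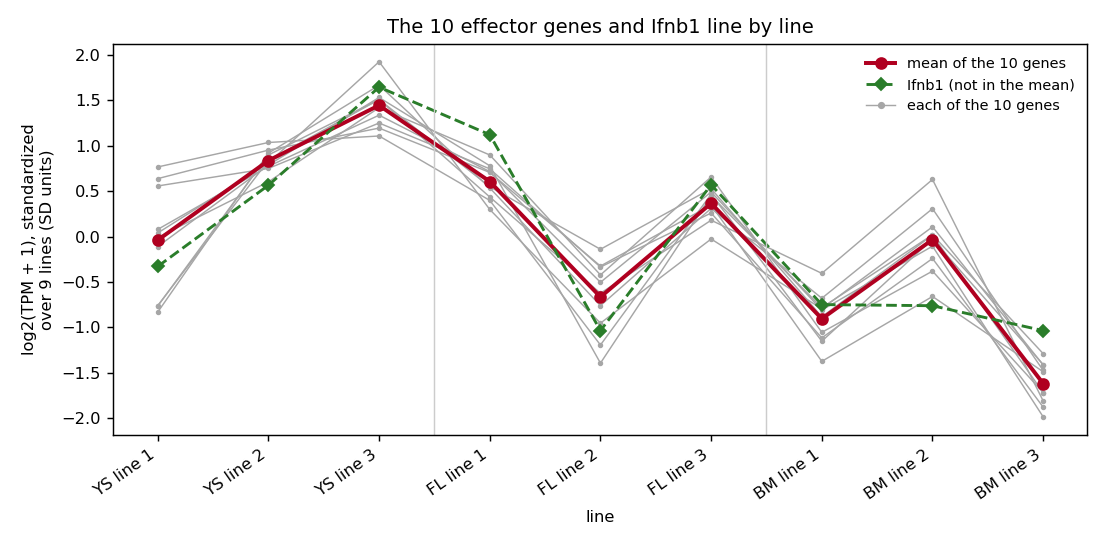
Standardized log2(TPM + 1) of each of the 10 genes (gray), their mean (red) and the interferon gene Ifnb1 (green, dashed) in the 9 lines, in SD units over the lines. The red mean is highest in YS line 3 (1.45) and lowest in BM line 3 (-1.62), and Ifnb1 is likewise highest in YS line 3 but lies below the mean in BM line 2.

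The genes most like the mean profile of the effectors, by Pearson's r over the 9 lines and outside the 10 members, were Irgm2 (0.99), Ogfr (0.99), Xaf1 (0.99), Gvin1 (0.99), Oas2 (0.99), Gm4070 (0.99), Cmpk2 (0.98), Ddx58 (0.98), Igtp (0.98) and Lgals3bp (0.98). Irgm2 and Igtp encode interferon-inducible GTPases, Oas2 encodes an RNA-activated oligoadenylate synthetase and Ddx58 encodes the RNA sensor RIG-I. All 10 of these genes were called higher in YS than in BM lines, beside 7.57% of all tested genes, with log2 fold changes from 1.02 (Ogfr) to 3.42 (Cmpk2), and none was called in limma between FL and BM lines, where 3 of 10 had an unadjusted p under 0.05, beside 33.6% of all tested genes. They were chosen for their likeness to a profile that holds the YS against BM difference, so these calls are a description and support nothing. Oas2, for example, was at 143, 223 and 344 TPM across YS lines 1, 2 and 3, 198, 83.8 and 144 TPM across the FL lines and 92.3, 127 and 46.1 TPM across the BM lines. YS line 3 was again the highest and BM line 3 the lowest. Gvin1 and Gm4070 are very large GTPase genes that share 98.3% and 96.7% of their 75-base stretches with other transcripts, and their values cannot be separated.

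Levels of the effectors relative to each other were compared as well. Within a library, Ifit1 minus Mx1 on the log2(TPM + 1) scale was -0.29 ± 0.99 in YS lines and 0.67 ± 0.53 in FL lines but 3.46 ± 0.93 in BM lines (SD, n = 3 lines each). The lowest BM line (2.41) was above the highest YS or FL line (1.20). Mx1 was at 0.22, 3.22 and 0 TPM in BM lines 1, 2 and 3. In BM lines 1 and 3 differences to Mx1 thus give little more than the level of the other gene. The gap between YS and BM lines restates the fold changes of Ifit1 (1.52) and Mx1 (5.27) given above and is no separate result. Isg15 minus Mx1 was 2.27 ± 0.57, 2.77 ± 0.59 and 5.35 ± 0.30 in the same order, again without overlap between BM lines and the others. For Ifit3 minus Mx1 the values were 0.89 ± 1.63, 2.14 ± 0.63 and 3.39 ± 0.78, and BM line 3 (2.50) lay below FL line 2 (2.68). BM line 2 held 59.3 TPM of Ifit1, 80.9% of the YS line 2 level, and 3.22 TPM of Mx1, 4.71% of it. For the other members BM line 2 held from 13.1% (Ifi44) to 52.8% (Ifit2) of the YS line 2 level, beside the median of 14.3% over the 44 genes named above. These gene pairs were chosen after the values were seen and were not tested.

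**Figure D4:**
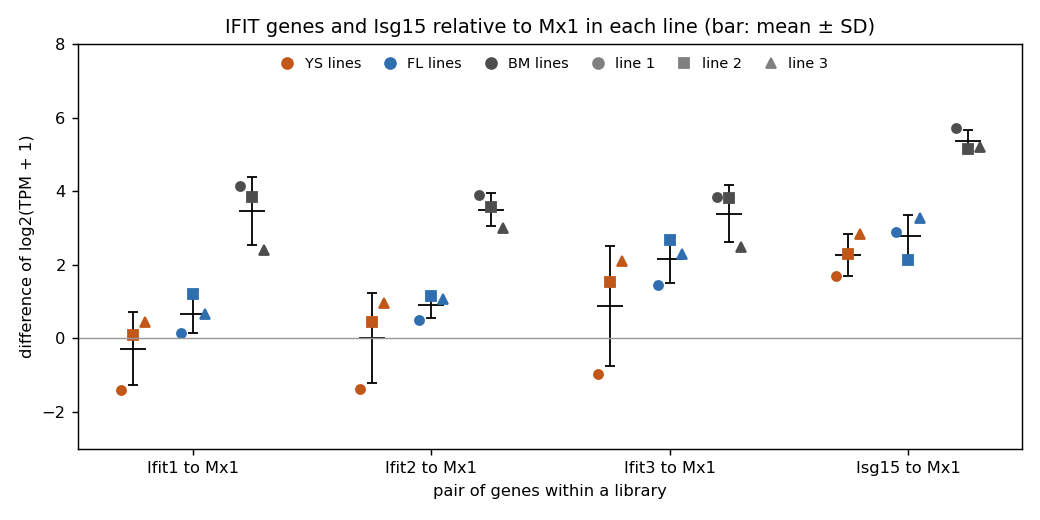
Difference of log2(TPM + 1) between Ifit1, Ifit2, Ifit3 or Isg15 and Mx1 within each of the 9 libraries, by group; symbols are lines and bars give the mean ± SD. BM lines (dark) lie above YS and FL lines for Ifit1, Ifit2 and Isg15, and overlap with FL lines for Ifit3. Mx1 was at or near 0 TPM in BM lines 1 and 3.

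Upstream of the effectors, 21 interferon ligand genes were looked up and 1 passed the filter, Ifnb1, which encodes interferon beta. Its level was 0.60, 1.90 and 4.95 TPM across YS lines 1, 2 and 3. It was 3.20 and 1.91 TPM in FL lines 1 and 3 with FL line 2 listed at 0, and 0.21 and 0.20 TPM in BM lines 1 and 2 with BM line 3 listed at 0. Each YS line was above every BM line, yet the log2 fold change of 1.42 did not pass (SE 0.60, adjusted p = 0.109 in limma). The r of Ifnb1 with the effectors' mean profile was 0.90 over the 9 lines, as a description, at levels of a few TPM. BM line 2 had the highest effectors of the BM lines at an Ifnb1 level no higher than that of BM line 1. No interferon alpha, gamma, epsilon, kappa, zeta or lambda gene exceeded 0.60 TPM in any line.

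Among 8 tested receptor chains and kinases, 1 was called, Tyk2, between YS and BM lines. That is near the share of all tested genes, of which 7.57% were called higher and 5.22% lower there. Tyk2 was at 51.0, 47.5 and 112 TPM across YS lines 1, 2 and 3, 48.3, 38.6 and 34.9 TPM across the FL lines and 28.6, 28.4 and 30.5 TPM across the BM lines. Tyk2 rose in YS against BM lines by a log2 fold change of 1.12 (SE 0.29, adjusted p = 0.024 in limma). The receptor genes Ifnar1 and Ifnar2 were not called, with log2 fold changes of -0.05 (95% interval -0.49 to 0.39) and 0.06 (-0.26 to 0.38) in YS lines and 0.12 (-0.32 to 0.56) and 0.01 (-0.31 to 0.33) in FL lines. Jak1 differed by 0.44 and 0.66 in the same comparisons and Jak2 by -0.62 and -0.93. Those 4 values passed the false discovery rate (limma adjusted p = 0.0657, 0.0193, 0.0254 and 0.00585) but were under 2-fold. Il10rb, Ifngr1 and Ifngr2 were not called either, with log2 fold changes between -0.30 and 0.59 against BM lines. Il10rb in FL lines (limma adjusted p = 0.00689) and Ifngr2 in YS and FL lines (limma adjusted p = 0.0611 and 0.0157) also passed the false discovery rate but were under 2-fold. None of the 8 was called by limma between FL and BM lines, where 4 had an unadjusted p under 0.05, beside 33.6% of all tested genes.

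Of 8 STAT and IRF factor genes, all tested, 3 were called higher in YS than in BM lines and 2 in FL than in BM lines. Of all tested genes 7.57% and 6.01% were. Irf7, which amplifies interferon production, was at 241, 255 and 199.7 TPM across YS lines 1, 2 and 3, 183, 56.2 and 144 TPM across the FL lines and 59.9, 128 and 18.4 TPM across the BM lines. Its YS lines were all above the other lines, and its log2 fold change against BM lines was 2.12 (SE 0.65, adjusted p = 0.0424 in limma). Stat2, a subunit of ISGF3, was at 77.2, 128 and 224 TPM across YS lines 1, 2 and 3, 127, 61.2 and 105 TPM across the FL lines and 43.5, 57.9 and 28.0 TPM across the BM lines, with YS and FL lines all above BM lines and log2 fold changes of 1.63 (limma adjusted p = 0.0237) and 1.16 (limma adjusted p = 0.0929). Irf8, a myeloid lineage factor, was called in both, at 1.54 and 1.11 (limma adjusted p = 0.00482 and 0.0177). Irf9, also part of ISGF3, reached 0.96 in YS lines (limma adjusted p = 0.031), just under 2-fold, and 0.63 in FL lines. Irf2, a factor that can repress these promoters, was at 0.99 and 0.50, Irf1 at 0.65 and 0.09, Irf3 at 0.18 and 0.18 and Irf5 at 0.60 and 0.60, none of them called. The values of Irf2 (limma adjusted p = 0.00734 and 0.0925) and Irf5 (limma adjusted p = 0.0466 and 0.0592) passed the false discovery rate but were under 2-fold.

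The enzymes that join ISG15 to proteins had smaller fold changes than Isg15 itself, a difference that was not tested. Of 5 tested genes apart from the members, 2 were called higher in YS than in BM lines, beside 7.57% of all tested genes. These were Uba7, the activating enzyme, and Herc6, the main ligase in mice, with log2 fold changes of 1.16 and 1.45 (standard errors 0.40 and 0.49, limma adjusted p = 0.0591 and 0.0563). The conjugating enzyme Ube2l6 was at 142, 281 and 401 TPM across YS lines 1, 2 and 3, 236, 98.3 and 203 TPM across the FL lines and 220.1, 266 and 181 TPM across the BM lines. It overlapped across all groups, at 0.20 (limma adjusted p = 0.745) and -0.39 (limma adjusted p = 0.566). Trim25 and Ube2e1 differed by 0.27 and 0.44 between YS and BM lines and were not called. Ube2e1 passed the false discovery rate (limma adjusted p = 0.0271) but was under 2-fold. None of the 5 was called by limma between FL and BM lines or had an unadjusted p under 0.05 there, as 33.6% of all tested genes did.

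Among 7 tested relatives of the members, Cmpk2 was the 1 called gene, between YS and BM lines. That is near the share of all tested genes, of which 7.57% were called higher and 5.22% lower there. Ifit3b (2.66), Ifit1bl1 (1.55) and Ifit1bl2 (1.27) had log2 fold changes between YS and BM lines that did not pass, with limma adjusted p of 0.145, 0.30 and 0.124. Aen, an exonuclease gene beside Isg20 that is induced by p53, and the distant relatives Isg20l2 and Rexo4 were at -0.45, 0.84 and -0.12. Aen and Isg20l2 passed the false discovery rate (limma adjusted p = 0.0801 and 0.00613) but were under 2-fold.

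Nearly all of the other interferon-induced genes that were called against BM lines were higher in YS or FL lines. Of 68 other interferon-induced genes tested, 49 were called higher and 1 lower in YS than in BM lines (median log2 fold change 1.50). Among all tested genes 7.57% were called higher and 5.22% lower there. In FL against BM lines 18 of the 68 were called higher and 1 lower (median 0.89), beside 6.01% and 4.3% of all tested genes. Between YS and FL lines 1 of the 68 was higher and 1 lower (median 0.63), near the shares of all tested genes (1.95% and 1.85%). The largest YS against BM values without overlap were those of Iigp1 (5.40), Ccl5 (4.57), Zbp1 (4.54), Cxcl10 (3.37) and Phf11b (3.26). Iigp1, an immunity-related GTPase gene, was like Mx1 nearly absent from BM lines 1 and 3, at 0.61 and 0.10 TPM, with 8.65 TPM in BM line 2 and 39.5, 129 and 245 TPM in YS lines 1 to 3. Between FL and BM lines Iigp1 (4.46), Zbp1 (3.53), Lgals9 (2.79), Phf11b (2.27) and Trim30d (2.15) had the largest values among the called genes without overlap. Ccl5 was called there as well, at 3.39 (limma adjusted p = 0.0501), with groups that overlapped. Of 9 inhibitors of the pathway other than Usp18, the DNase gene Trex1 (1.45) and the feedback inhibitor Socs1 (1.40) were called higher in YS than in BM lines. Of all tested genes 7.57% were. By limma 0 of the 9 were called between FL and BM lines, where 4 had an unadjusted p under 0.05 beside 33.6% of all tested genes.

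NF-kB response genes, which inflammatory signals raise by another route, were called in both directions against BM lines. Of 19 tested, 2 were called higher and 2 lower in YS than in BM lines (median log2 fold change -0.15), and 2 higher and 4 lower in FL than in BM lines (median -0.49). Among all tested genes 7.57% were called higher and 5.22% lower in the first comparison, and 6.01% and 4.3% in the second. Between YS and FL lines 4 of the 19 were called higher and 0 lower in limma (median 0.46), beside 1.95% and 1.85% of all tested genes. There 10 of the 19 had an unadjusted limma p under 0.05, beside 25.7% of all tested genes. Ccl4 (3.07) and Ccl3 (1.07) were higher and Tnfaip3 (-1.44) and Nfkbie (-1.26) lower in YS than in BM lines. In FL against BM lines the called genes included Ccl4 (2.05) and Il1b (1.66) as higher and Bcl3 (-2.72), Ptgs2 (-1.87) and Nfkbie (-1.27) as lower.

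**Figure D5:**
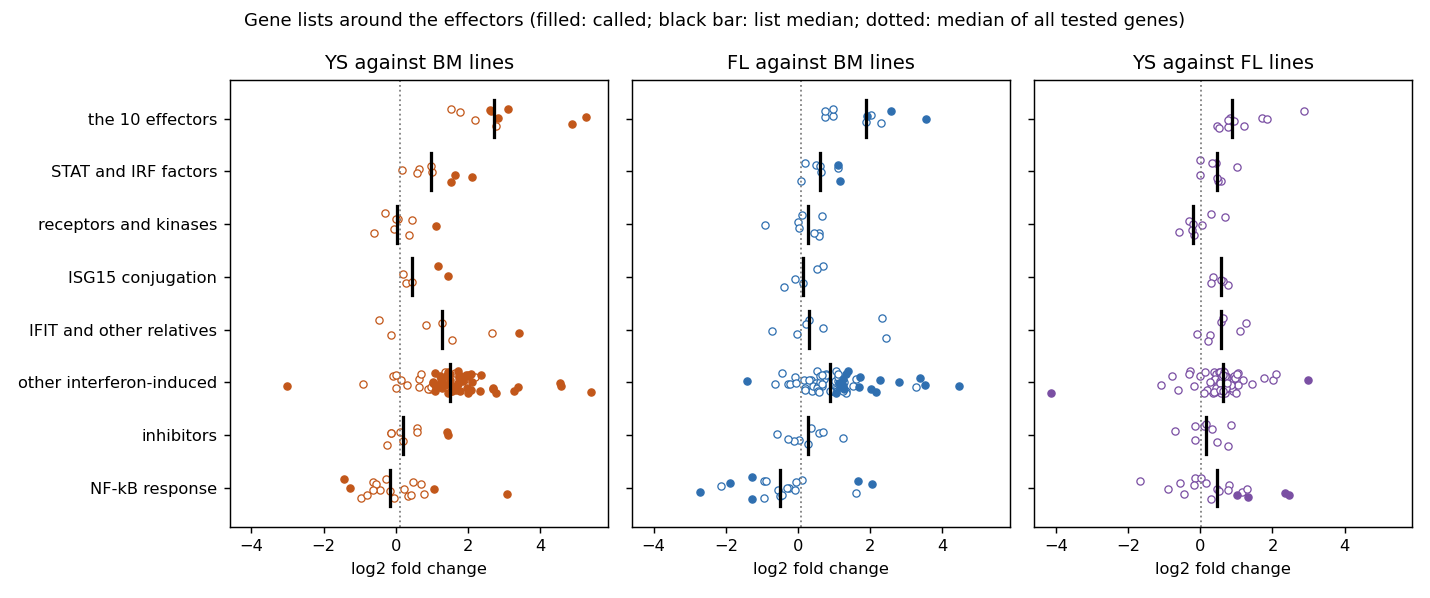
log2 fold change of every tested gene of each list in the 3 comparisons; filled points were called, black bars are list medians and the dotted line is the median of all tested genes. The effectors (median 2.71) and the other interferon-induced genes (median 1.50) lie to the right of the dotted line between YS and BM lines, while the NF-kB response genes (median -0.15) spread on both sides of it.

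A few markers of other cell types differed along with the groups. Over 4 endothelial markers the summed level was 5.37 to 56.0 TPM for YS, 18.9 to 51.8 TPM for FL and 0.08 to 1.70 TPM for BM lines, carried by Kdr in FL lines and in YS lines 2 and 3 and by Pecam1 in YS line 1. The defining Tek was at 0.04 TPM or less in every line, and Cdh5 at 1.38 TPM or less. Over 6 neutrophil markers, 3 of them at 0 in all lines, the summed level was 0 to 2.51 TPM in YS, 10.6 to 25.6 TPM in FL and 3.66 to 5.00 TPM in BM lines. It was carried by S100a8 alone, with S100a9 among the genes at 0 and Camp and Ltf at 0.49 TPM or less. Fibroblast and lymphocyte markers summed to 0.85 and 0.62 TPM or less in every line. Whether such cells were present, and their part in the effectors' differences, was not tested.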

How the data were processed

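Libraries of 3 YS, 3 FL and 3 BM lines were prepared by the authors from poly(A)-selected RNA with a directional kit, and 1 end of each fragment was sequenced to 75 nt. From these the authors deposited 1 table of TPM (relative transcript abundance, corrected for transcript length and scaled to the same sum in each library) for 24411 gene symbols, given to 2 decimals. The submitters' processing notes name Trim Galore 0.6.6, STAR 2.7.9a and RSEM 1.3.3. The genome build and annotation are not given in the sources used here. The raw counts of the study's own test were not used here.

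Lines were grouped by their labels. From the deposited TPM, log2(TPM + 1) was computed, a scale that understates changes of genes with low TPM, and genes that reached 1 TPM in 3 or more of the 9 libraries were tested with limma 3.58.1 in R 4.3.3. The fit held all 9 libraries, 1 coefficient per group and an intensity trend, with Benjamini-Hochberg adjustment over the 11753 genes. A gene was called if its false discovery rate was under 0.1 and its change exceeded 2-fold. An exact two-sided permutation test of 3 lines against 3 could not go below 0.1. The fit was tested on simulated data. The members, the gene lists and the tests were chosen with earlier results of these data known, so that no list is independent evidence. The text names the 10 members, all tested ligands, receptors, kinases, STAT and IRF factors and ISG15 enzymes, of the other lists at most 5 called genes per comparison with the largest change among those without overlap, and the 10 genes most like the members. The other genes named (relatives, NF-kB and interferon genes outside this rule, and markers) were chosen after their values were seen. Promoters came from RefSeq (GRCm38.p6) and transcripts from GENCODE M21. Alternatives changed the pseudocount, filter, scaling, variance trend, libraries, thresholds and replicate block, and left out each line in turn. The pair of lines left out together and the summed Ifit3 and Ifit3b were chosen after seeing the data. An item withheld from this text is not reported here.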

Additional observations from a re-analysis of the deposited data

How the results depend on the processing

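Of 191 single-gene values recomputed in each comparison, 174, 171 and 188 (YS against BM, FL against BM and YS against FL lines) kept their direction and their side of the threshold, 6, 12 and 0 lost the call, 11, 7 and 0 gained it, and 0, 1 and 3 changed sign. When 1 line was left out, the members called were 3 to 10 between YS and BM lines, beside 5.55% to 7.98% of all tested genes called higher. Between FL and BM lines they were 1 to 5, beside 4.38% to 6.5%. They were 10 and 5 without both YS line 1 and BM line 2, beside 8.28% and 7.02%. Between FL and BM lines 1 member (Mx1) was called without a filter, at a false discovery rate of 0.05 and with the replicate block. Of all tested genes 3.9%, 5.16% and 5.91% were called higher in these settings. Between YS and FL lines 0 members were called in all settings, beside 0.40% to 6.20% of all tested genes called higher. The values that changed sign came from leaving out 1 line: Ifit1 in FL against BM lines ranged from -0.16 to 1.59, and in YS against FL lines Ifit3 ranged from -0.48 to 1.75 and Rsad2 from -0.19 to 1.15. Without a fold threshold 4455, 3247 and 1500 genes were called in the 3 comparisons, beside 1504, 1211 and 446. The YS against FL count was 280 at a pseudocount of 4, 81 with only those groups in the fit, 234 at a false discovery rate of 0.05, 191 to 588 with 1 line left out and 269 without YS line 1 and BM line 2. The causes were not tested.

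The lines carry the numbers 1 to 3 in each group, and the labels state no pairing. Deviations of same-numbered lines from their group means correlated at -0.12 to 0.09. Lines of unlike numbers were not compared, so these values cannot tell whether the numbers pair the lines. The numbers are used here as names only. With the replicate block 6, 1 and 0 members were called, and 1503, 1191 and 409 genes in all. TPM holds no depth, so counting error could not be given, and the 3 lines per group limit what can be resolved for genes that vary this much.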

Other observations

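Slfn5 and Slfn8, of the Schlafen family of interferon-induced genes, had other patterns than the effectors. This does not hold for the whole family. Slfn9 was called higher in YS than in BM lines, with a log2 fold change of 1.25 (limma adjusted p = 0.0228). Its r with the effectors' mean profile was 0.88. Slfn2 was not called there, at 0.31 (limma adjusted p = 0.572). Slfn5 was at 0.33, 0.70 and 1.08 TPM across YS lines 1, 2 and 3, 93.9, 76.3 and 2.40 TPM across the FL lines and 8.46, 26.1 and 8.76 TPM across the BM lines. It was near 1 TPM or less in YS lines, where the effectors were highest, and its log2 fold change between YS and FL lines was -4.12 (standard error 1.12, limma adjusted p = 0.0699). Against BM lines it was -3.02 in YS lines (limma adjusted p = 0.0767) and 1.11 in FL lines (limma adjusted p = 0.538, not called). Slfn8 was at 66.4, 125 and 117 TPM across YS lines 1, 2 and 3, 9.16, 12.9 and 13.6 TPM across the FL lines and 39.9, 54.1 and 16.3 TPM across the BM lines. FL lines were below both other groups, by a log2 fold change of -1.41 against BM lines (limma adjusted p = 0.0459), while YS lines were above FL lines by 2.97 (limma adjusted p = 0.0146) and above BM lines by 1.56 (limma adjusted p = 0.0261). Lgals9, which encodes galectin-9, was at 161, 527 and 509 TPM across YS lines 1, 2 and 3, 619, 629 and 563 TPM across the FL lines and 113, 174 and 32.6 TPM across the BM lines. FL line 2, the lowest FL line for all 10 effectors, was the highest FL line for this gene.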
